A study of Mus musculus with 62 samples.

Results

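Hoxb8, 3 genes of the Hoxa cluster (Hoxa7, Hoxa9 and Hoxa10), Hoxb4 and the cofactors Meis1 and Pbx3 were followed by symbol through a table of read counts for 37620 mouse genes. These 7 genes were chosen by name, and each had 1 row in the table. Hox genes encode homeodomain transcription factors that stand in 4 chromosomal clusters and are used along the body axis of the embryo and in blood stem and progenitor cells. In the bone marrow the Hoxa genes and Hoxb4 are active in immature cells and are shut down as the cells mature. Hox proteins bind DNA weakly on their own and gain specificity by pairing with TALE homeodomain proteins, the Pbx and Meis families, of which Meis1 and Pbx3 are the members best known from leukemias driven by Hoxa9. MLL (Kmt2a) complexes keep Hox genes active, and Polycomb complexes keep them silent.

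The study sequenced total RNA in bulk from 62 samples, with progenitor and mature cells paired by clone per its design text. In 24 clones of ER-Hoxb8 cells, myeloid progenitors immortalized by Hoxb8 fused to the hormone-binding part of the estrogen receptor and cultured with 10% serum and stem cell factor (SCF) in RPMI, 1 library came from monocytic cells and 1 from granulocyte-monocyte progenitors (GMP; 24 libraries of each state). The other 14 libraries came from primary monocytes that were flow-sorted from mouse bone marrow, with 2 libraries for each of nonclassical, intermediate and classical monocytes and of class 4, class 3, class 2 and class 1. Both states of every clone carry the fusion, and the primary monocytes are not described as carrying it. The labels give no strain, age, sex, gate, class definition or account of how maturation was started, and separate animals or cultures are not stated for replicates, so the p-values cover the spread between these libraries alone, which may be technical. The titles mark every progenitor library as Plus and every monocytic library as Minus, without saying what the terms stand for. State and this condition cannot be told apart. Clones were divided into 2 sets, 15 to 25 and 1 to 13, with their totals known. In the set 15 to 25, monocytic libraries held 1.83 to 9.12 M counts (M, mega) and progenitor libraries 0.362 to 16.5 M, the least in clone 21. In the set 1 to 13, monocytic libraries held 22.9 to 34.5 M and progenitor libraries 12.6 to 47.3 M. Primary libraries held 21.2 to 35 M. Monocyte markers summed to between 4785 and 62459 CPM (counts per M counts of the library total after TMM scaling) in monocytic libraries and to between 559 and 3059 CPM in progenitor libraries. Neutrophil markers, over the same libraries, summed to between 264 and 195272 CPM in the monocytic state and to between 11.5 and 7833 CPM in the progenitor state, so the monocytic libraries also held granulocytic transcripts in widely varying amounts. In bulk RNA, fewer cells of a type and less RNA per cell cannot be told apart.

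The promoters of Hoxb8, Hoxb4 and Meis1 are shown because these 3 members were called between the states of a clone and have a promoter in the sequence table used. The Hoxb8 window is that of the gene of the cell, while Hoxb8 counts may include the introduced fusion. Sequences are from RefSeq (build GRCm38.p6) and cover the 250 bases before the start site, written 5′ to 3′ on the strand of the gene. Of the 7 members, 6 had a promoter in that table, and Pbx3 had none. The windows lie at chr11:96281655-96281904 (+) for Hoxb8, chr11:96318017-96318266 (+) for Hoxb4 and chr11:19018970-19019219 (-) for Meis1. Capitals mark the Pbx-Hox motif TGATNNAT, searched on both strands.
Hoxb8: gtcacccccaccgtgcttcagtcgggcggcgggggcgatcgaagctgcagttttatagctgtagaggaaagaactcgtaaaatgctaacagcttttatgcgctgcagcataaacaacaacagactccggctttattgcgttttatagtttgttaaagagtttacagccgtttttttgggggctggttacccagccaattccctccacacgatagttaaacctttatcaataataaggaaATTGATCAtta
Hoxb4: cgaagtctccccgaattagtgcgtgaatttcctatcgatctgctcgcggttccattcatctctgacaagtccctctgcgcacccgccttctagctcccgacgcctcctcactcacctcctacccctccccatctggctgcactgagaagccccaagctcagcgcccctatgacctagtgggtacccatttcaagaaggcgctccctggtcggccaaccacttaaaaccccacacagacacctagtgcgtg
Meis1: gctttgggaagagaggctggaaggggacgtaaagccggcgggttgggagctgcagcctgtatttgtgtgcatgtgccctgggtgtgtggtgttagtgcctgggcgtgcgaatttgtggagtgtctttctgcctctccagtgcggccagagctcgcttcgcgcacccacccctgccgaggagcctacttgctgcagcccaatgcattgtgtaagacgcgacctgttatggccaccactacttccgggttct
The Hoxb8 window held 1 match, on the reverse strand close to the start site, and none was found in the windows of Hoxb4, Meis1, Hoxa7, Hoxa9 or Hoxa10. Of 32851 mouse promoter windows of this length, 7.68% held the motif. The Meis motif TGACAG, which stood in 15.9% of those windows, was in none of the members' windows.

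Hoxb8 (ENSMUSG00000056648) lies on chromosome 11 within the Hoxb cluster, between Hoxb7 and Hoxb9, and its protein is the one used to immortalize these cells. Its counts may include the introduced fusion, and a count per gene cannot separate the fusion from the gene of the cell. Monocytic libraries ran from 69.7 CPM in clone 5 through a median of 283 to 845 CPM in clone 19. Progenitor libraries ran from 53.0 CPM in clone 13 through a median of 130 to 1797 CPM in clone 24. The ranges of both states overlapped almost fully, and the library with the highest level in the series was a progenitor one. Of the primary libraries, 13 of 14 held 0 Hoxb8 counts and the other, class 3 replicate 2, held 2 counts. The monocytic mean was at least 4642-fold and the progenitor mean at least 4024-fold higher than in classical monocytes, taking a floor of 3 counts over the 2 classical libraries, a bound that covers counting error only. Per kilobase of exon, Hoxb8 averaged 113 ± 60.6 CPM per kb in monocytic libraries and 98.0 ± 134 CPM per kb in progenitor libraries (SD, n = 24 each), well above any other member.

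**Figure D1:**
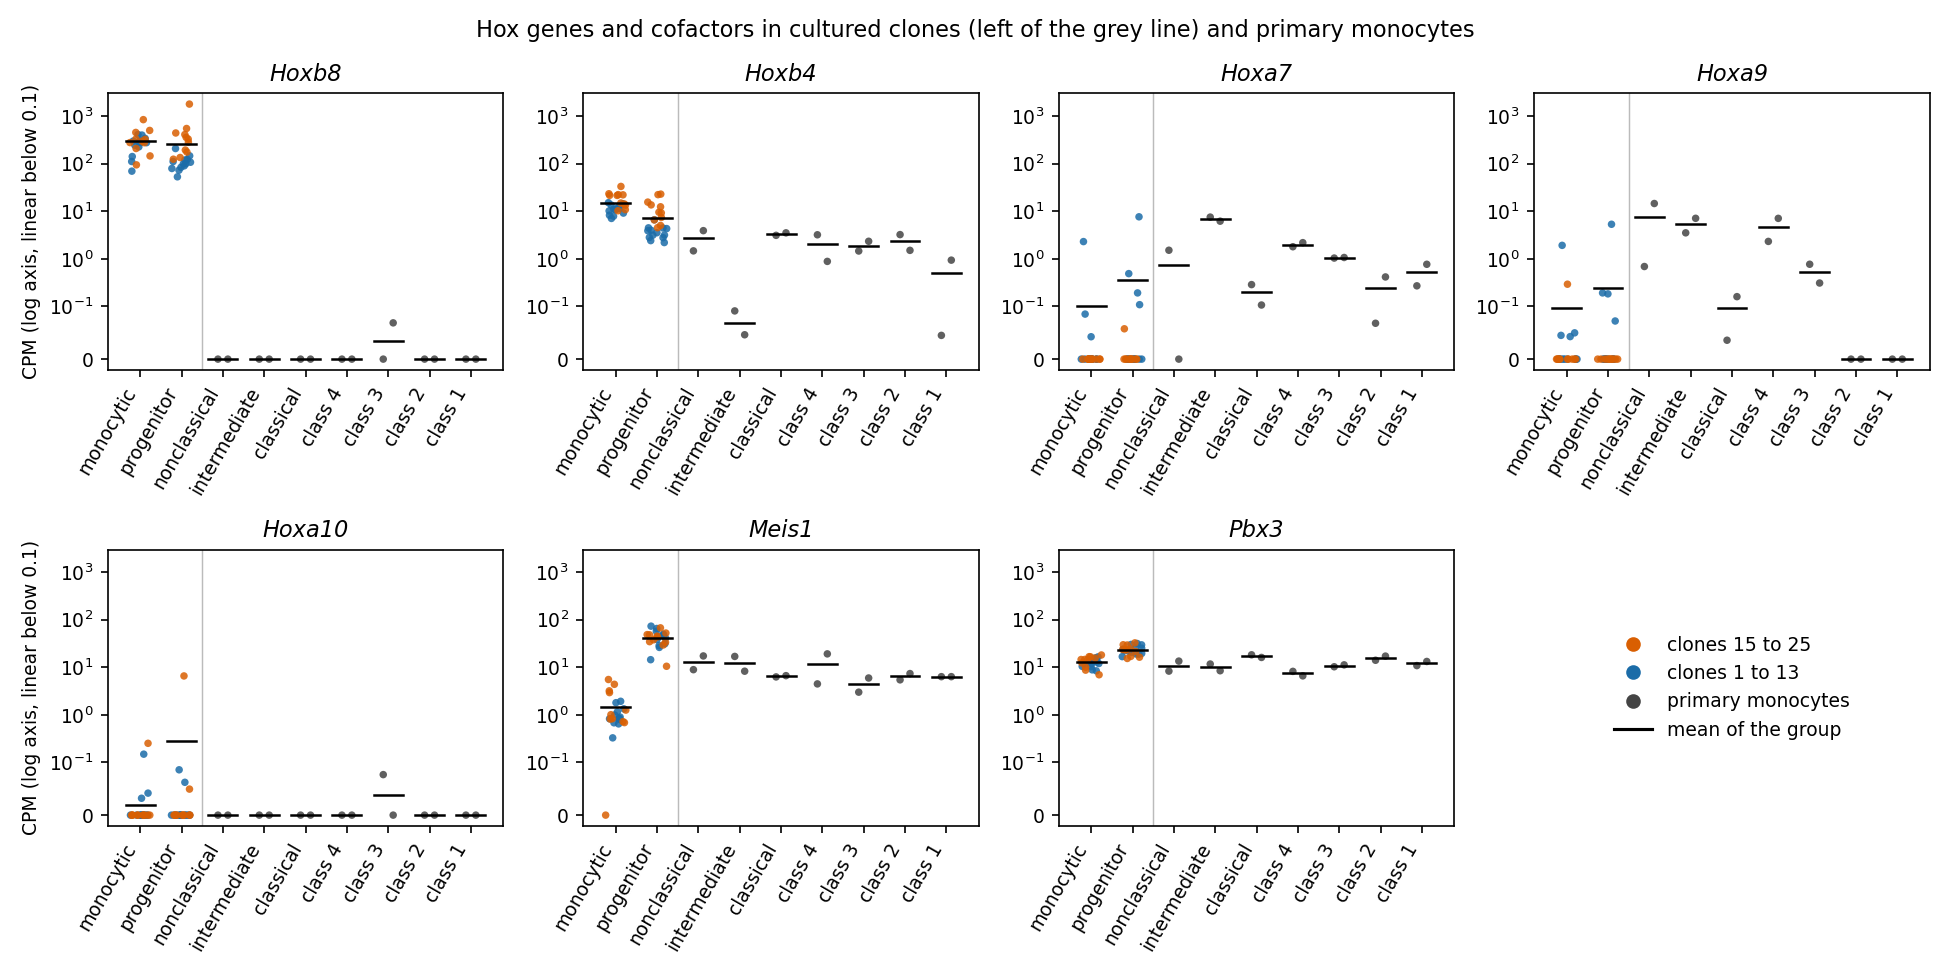
Levels of the 7 members in every library, in CPM on a log axis that is linear below 0.1. Each point is 1 library (24 per cultured state, 2 per primary group) and each black line the mean of its group; Hoxb8 stood at 53.0 CPM or more in every cultured library and at 0 in 13 of 14 primary ones.

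The genes beside Hoxb8 did not share its level. Across the 48 cultured libraries Hoxb7 reached at most 7 counts, Hoxb6 at most 3 and Hoxb9 at most 1, while Hoxb8 reached 12535 counts. Of 39 Hox genes, 38 had a single row in the table, and 3 of them (Hoxb8, Hoxb4 and Hoxb3) had at least 10 counts in at least 20 of the 48 cultured libraries. Hoxb3, an anterior Hoxb gene next to Hoxb4, averaged 0.752 ± 0.542 CPM in monocytic libraries and 0.414 ± 0.251 CPM in progenitor libraries (SD, n = 24 each), too few counts for the low-count filter over all 48 libraries. In clones 1 to 13 alone it passed the filter and was higher in monocytic cells (log2 fold change 1.08, edgeR adjusted p = 0.0224), and without a filter over all clones it was not called (0.70, adjusted p = 0.084). In all, 26 of the 38 genes had fewer than 10 counts in every library of the series.

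The gene whose pattern over the 48 cultured libraries was most like that of Hoxb8 was Esr1, which encodes the estrogen receptor alpha, part of which makes up the other portion of such fusions. After the mean of each state in each clone set was removed, r was 0.98 between the log2 CPM of Hoxb8 and Esr1. Esr2 followed with 0.94 and Arid3c, a gene of the ARID family of DNA-binding proteins, with 0.90. The points share library and depth, and 9455 genes were compared. Esr1 had between 0.460 and 0.761 counts per Hoxb8 count in monocytic libraries (median 0.624) and between 0.566 and 0.862 in progenitor libraries (median 0.743). The primary libraries held 52 to 514 Esr1 counts with at most 2 Hoxb8 counts, so Esr1 was counted there without Hoxb8. Arid3c had 0 counts in all 14 primary libraries. Esr2 had 0 counts in 12 of the 14, 46 in class 4 replicate 1 and 1 in class 2 replicate 2. Whether reads from the fusion were assigned to any of these genes was not tested.

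**Figure D2:**
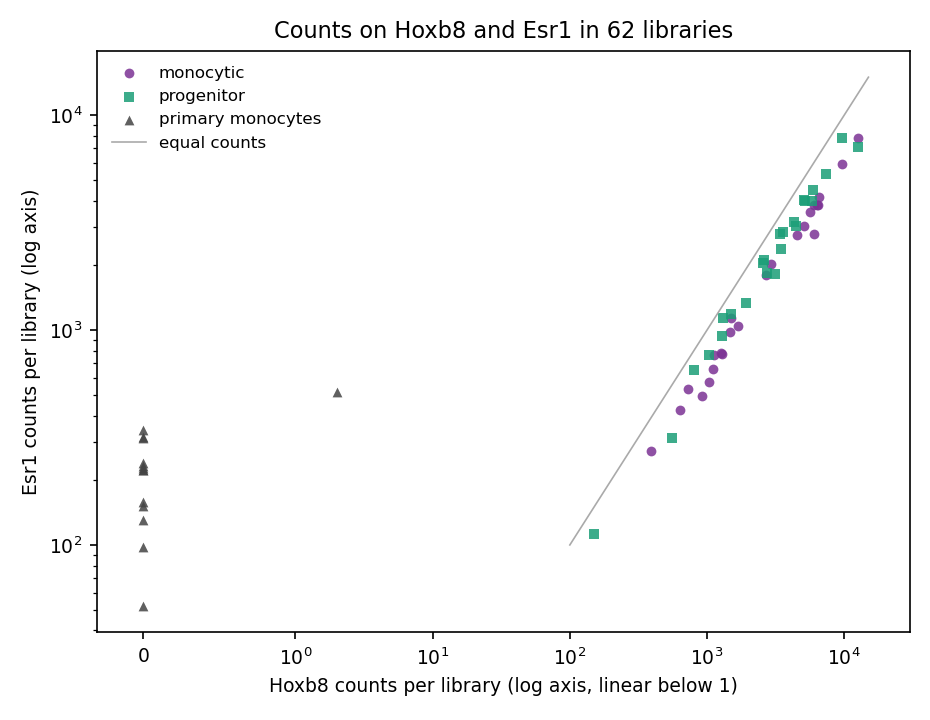
Counts on Esr1 against counts on Hoxb8 in all 62 libraries, both per library on log axes (the Hoxb8 axis is linear below 1). Purple circles are monocytic, green squares progenitor and black triangles primary libraries, and the grey line marks equal counts; the cultured libraries follow a line below equality, while the primary ones hold 52 to 514 Esr1 counts with at most 2 Hoxb8 counts.

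Between the 2 states of a clone, 4 of the 7 members could be tested after the low-count filter (Hoxb8, Hoxb4, Meis1 and Pbx3), and all 4 changed. This count stands against a background of 78.6% of 11614 tested genes called in that comparison (edgeR quasi-likelihood F test with the clone as a block and Benjamini-Hochberg adjustment), 38.5% higher and 40.1% lower, so it does not set the members apart. Hoxb4 and Hoxb8 were higher in monocytic cells, and Meis1 and Pbx3 were lower. Hoxa7, Hoxa9 and Hoxa10 fell below the filter.

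**Figure D3:**
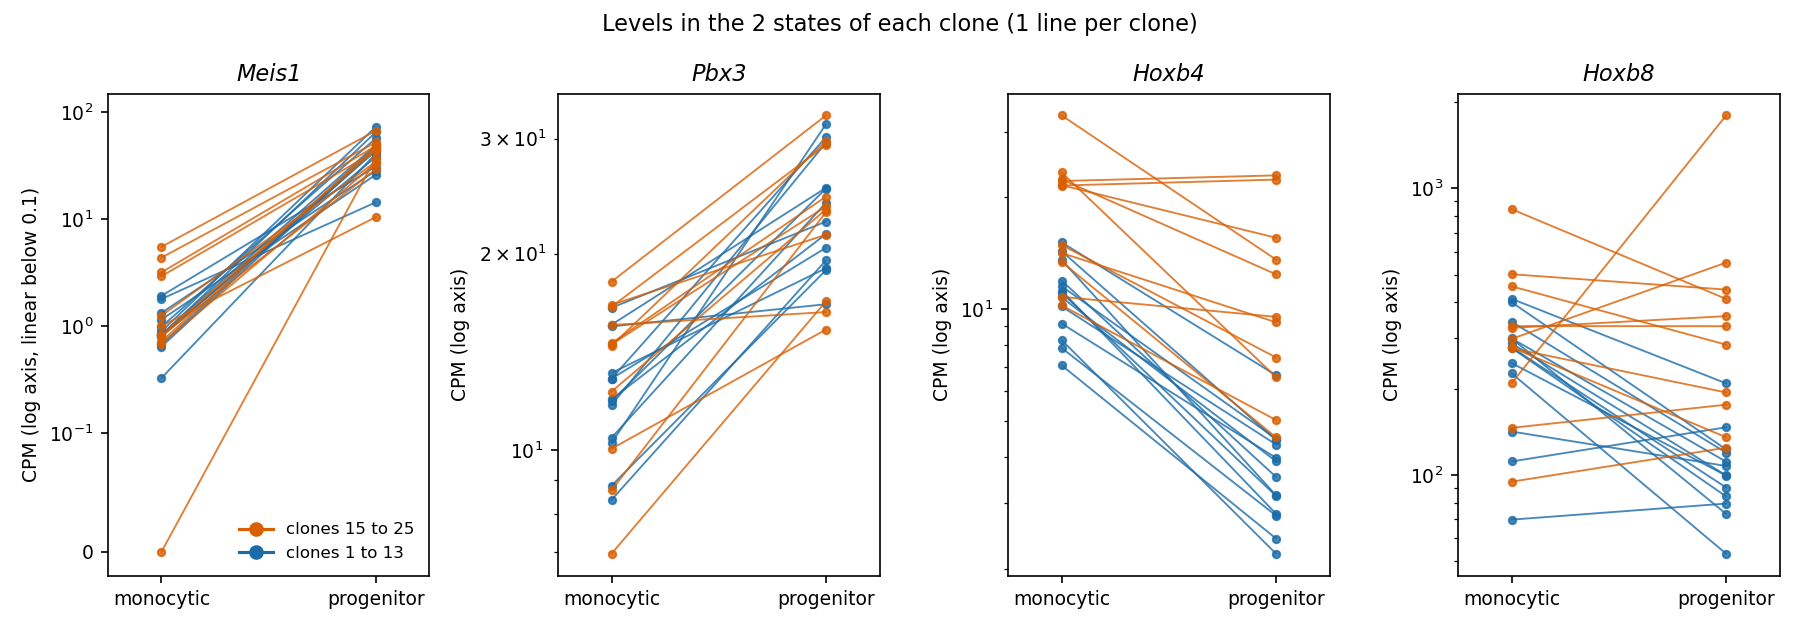
CPM of the 4 tested members in the monocytic (left) and progenitor (right) library of each clone, on log axes (linear below 0.1 for Meis1), with 1 line per clone, orange for clones 15 to 25 and blue for clones 1 to 13. Meis1 and Pbx3 lines run one way in 24 of 24 clones, Hoxb4 lines in 22, and Hoxb8 lines in 17.

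Meis1 (ENSMUSG00000020160), the cofactor that holds Hox complexes on DNA and is needed by blood stem cells, showed the widest separation. Its level was 0 CPM in the monocytic library of clone 20, 0.867 CPM at the median and 5.52 CPM at most, in clone 19. Progenitor libraries ran from 10.5 CPM in clone 24 through a median of 43.6 to 73.2 CPM in clone 4. The groups did not overlap, and Meis1 was lower in monocytic cells in 24 of 24 pairs. The fitted log2 fold change was −5.04 (SE 0.255, 95% interval −5.54 to −4.54, edgeR adjusted p = 6.97e-16). On chromosome 11 its exons overlap those of Gm37818 on the same strand and of Gm16140 on the opposite strand in GENCODE M21. Its counts may be affected by either overlap. The strand setting of the counting, which bears on Gm16140, is not given in the sources used here.

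Pbx3 (ENSMUSG00000038718), a TALE partner that contacts Hox proteins directly, moved the same way but by far less. It lay between 6.95 CPM (clone 20) and 18.1 CPM (clone 17) in monocytic libraries, median 12.9, and between 15.3 CPM (clone 21) and 32.5 CPM (clone 17) in progenitor libraries, median 23.3. The ranges met between 15.3 and 18.1 CPM, yet every clone had less Pbx3 in its own monocytic library, 24 of 24 pairs. The log2 fold change was −0.82 (SE 0.0913, edgeR adjusted p = 4.1e-09).

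Hoxb4 (ENSMUSG00000038692), known for expanding blood stem cells when it is overexpressed, went the other way. Monocytic libraries ran from 7.06 CPM in clone 6 through a median of 12.7 to 33.3 CPM in clone 16. Progenitor libraries ran from 2.19 CPM in clone 12 through a median of 4.49 to 22.9 CPM in clone 20. Hoxb4 was higher in monocytic cells in 22 of 24 pairs, and the exceptions, clones 17 and 20, had 21.5 and 22.1 CPM in monocytic cells against 22.3 and 22.9 CPM in progenitors. The log2 fold change was 1.27 (SE 0.137, 95% interval 1.0 to 1.54, edgeR adjusted p = 2.52e-09).

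Hoxb8 was higher in monocytic cells in 17 of 24 pairs, with a log2 fold change of 0.70 (SE 0.230, 95% interval 0.25 to 1.15, edgeR adjusted p = 0.00738). The differences within clones spread widely. On the log2 CPM scale they ran from −3.10 in clone 24, with 209 CPM in monocytic cells against 1797 CPM in progenitors, to 2.09 in clone 13, with 226 CPM in monocytic cells against 53.0 CPM in progenitors. Without the clone block the log2 fold change was 0.22 and did not pass (edgeR adjusted p = 0.519). Leaving out each clone in turn gave log2 fold changes from 0.63 to 0.82, all 24 of them called.

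The clone sets differed for Hoxb4 and Hoxb8. Among monocytic cells, Hoxb8 averaged 342 ± 205 CPM in clones 15 to 25 (SD, n = 11) and 261 ± 103 CPM in clones 1 to 13 (SD, n = 13). Among progenitors it averaged 437 ± 471 CPM in clones 15 to 25 and 107 ± 38.8 CPM in clones 1 to 13. Hoxb8 was higher in monocytic cells in 6 of 11 pairs of clones 15 to 25, among them clone 21 with 330 CPM in either library, and in 11 of 13 pairs of clones 1 to 13. The state difference was smaller in clones 15 to 25 by 1.31 on the log2 scale (edgeR interaction of state and clone set, −1.31, SE 0.381, adjusted p = 0.0142). Hoxb4 averaged 18.9 CPM in monocytic cells and 11.7 CPM in progenitors of clones 15 to 25, and 10.9 CPM in monocytic cells and 3.67 CPM in progenitors of clones 1 to 13. With each set fitted alone, the state difference of Hoxb4 was 0.82 for clones 15 to 25 and 1.66 for clones 1 to 13, and the interaction was −0.88 (SE 0.213, adjusted p = 0.00435). The same test called 23.7% of 11614 genes, and neither Meis1 (0.87, adjusted p = 0.173) nor Pbx3 (0.11, adjusted p = 0.703) passed it. Both interactions were called in 24 of 24 fits that left out 1 clone each. Depth differs between the sets as given above, most in the monocytic state, and its part in these differences cannot be told apart from that of the set.

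Over both sets together, Hoxb4 and Hoxb8 differed among clones beyond the state, in a test that takes in the difference between the sets. The test of all clone terms together passed for Hoxb4 (edgeR adjusted p = 0.000577) and Hoxb8 (adjusted p = 0.0217), against 11.7% of all tested genes, and not for Pbx3 (adjusted p = 0.353) or Meis1 (adjusted p = 0.727). Within either clone set alone it passed for no member, where 387 genes passed in clones 15 to 25 and 36 in clones 1 to 13. In these sets the edgeR adjusted p was 0.177 and 0.614 for Hoxb4 and 0.205 and 0.9999 for Hoxb8. The pooled calls thus cannot be told apart from a difference between the sets. Over 24 clones, log2 CPM of Hoxb4 in the monocytic library and in the progenitor library were correlated with r = 0.82 (permutation p = 2e-05, adjusted over 11614 genes 0.00215) and Spearman's rho = 0.78 (permutation p = 2e-05, adjusted 0.00455). Without clones 20 and 17, the 2 farthest from the median, r was 0.81. Among clones 15 to 25 r was 0.61, and among clones 1 to 13 it was 0.67. With the mean of each set removed it was 0.63 (permutation p = 0.00399), which did not pass the adjustment (adjusted p = 0.134). The pooled correlation passed for 8.25% of genes, rho for 3.62% and the correlation with set means removed for 1.11%.

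**Figure D4:**
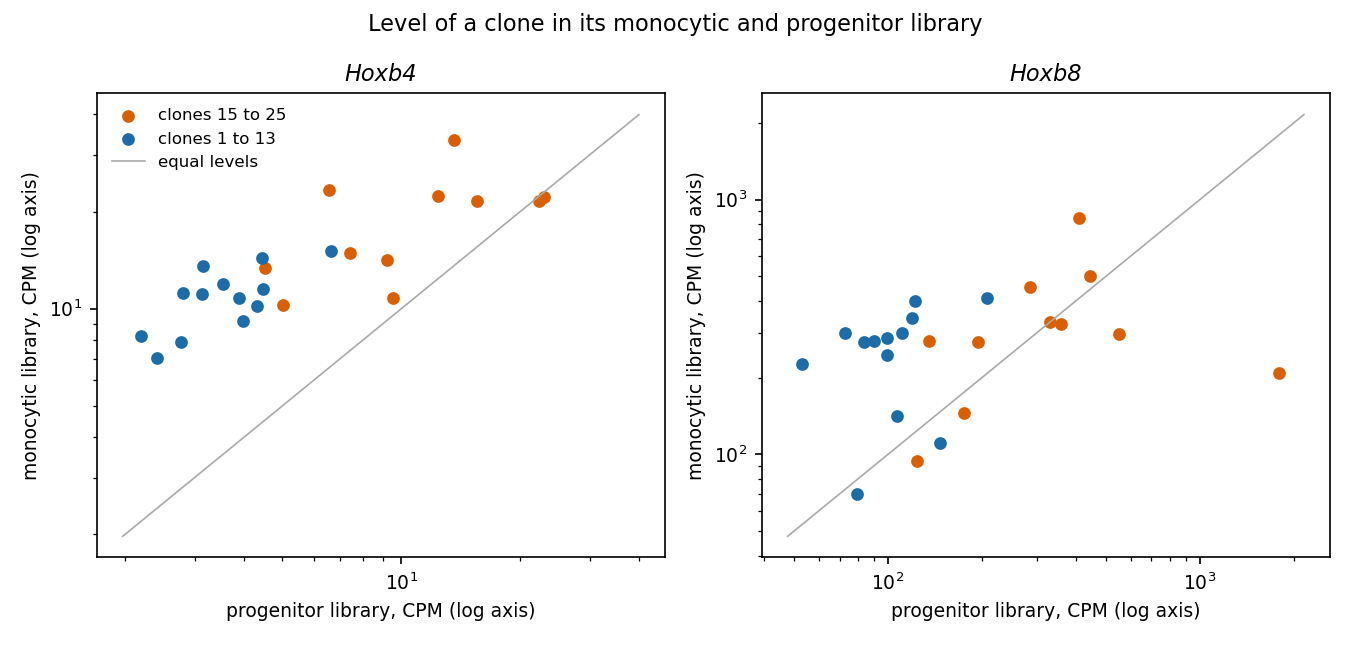
Level of Hoxb4 (left) and Hoxb8 (right) in the monocytic library (y axis) against the progenitor library (x axis) of each clone, in CPM on log axes, with 1 point per clone, orange for clones 15 to 25 and blue for clones 1 to 13, and a grey line at equal levels. Hoxb4 points rise together (r = 0.82 over 24 clones), and the Hoxb8 point far to the right is clone 24, with 209 CPM in monocytic cells and 1797 CPM in progenitors.

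The other members gave no such correlation between states past the threshold. Hoxb8 had r = 0.34 (permutation, adjusted p = 0.305) and rho = 0.43 (adjusted p = 0.221), and without clones 24 and 15 its r was 0.53. Pbx3 had r = 0.38 (adjusted p = 0.236) and rho = 0.31, and without clones 17 and 25 its r was 0.22. Meis1 had r = 0.07 (adjusted p = 0.864) and rho = −0.02. Its monocytic levels rest on few counts. Among the 4 members themselves, no pair was correlated within a state past the threshold (12 pairs over both states, set means removed, adjusted over all genes).

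Hoxa7 and Hoxa9, which belong to the Hoxa genes of immature blood cells, were counted in substance in a single clone. Clone 4 had 72 Hoxa7 counts in its monocytic library and 267 in its progenitor library, or 2.30 and 7.64 CPM. The next highest cultured library had 8 Hoxa7 counts, in the progenitors of clone 11. Hoxa9 (chromosome 6) had 60 counts in the monocytic library and 186 in the progenitor library of clone 4, or 1.92 and 5.32 CPM, and at most 3 counts in any other cultured library. Hoxa5, a neighbour in the cluster, had 5 and 23 counts in the same libraries, Hoxa6 9 and 8, and Hoxa4 5 and 10. Hoxa10 did not follow, with 1 and 3 counts in clone 4 and no more than 3 in any library. Both states of clone 4 thus held Hoxa4 to Hoxa9 transcripts, with 0 to 3 Hoxa9 counts in all other clones. Hoxa9 exons overlap the microRNA gene Mir196b and Hoxa7 exons overlap the antisense gene Hoxaas3 in GENCODE M21, so these counts may be affected by the overlaps.

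Usp24, which encodes a ubiquitin protease, was the gene most like Hoxa7 (r = 0.78) and Hoxa9 (r = 0.78) over the 48 libraries, and this too rests on clone 4. Usp24 had 1056 CPM in the monocytic and 362 CPM in the progenitor library of clone 4, and the next highest library, the progenitors of clone 15, had 159 CPM. The next gene by likeness to Hoxa7 and Hoxa9, Tbc1d22b, had r = 0.37 and r = 0.36.

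In primary monocytes Hoxa9, at 3 counts or fewer in all clones but clone 4, was counted in some groups and absent or nearly so in others. It had 15 and 350 counts in nonclassical replicates 1 and 2, 77 and 154 in intermediate and 1 and 3 in classical monocytes. In CPM these were 0.687 and 14.5 in nonclassical, 3.51 and 7.10 in intermediate and 0.0358 and 0.160 in classical monocytes, so that neither group overlapped the classical one. The fitted log2 fold change was 6.22 for nonclassical against classical (SE 1.95, edgeR adjusted p = 0.146) and 5.79 for intermediate against classical (SE 1.91, adjusted p = 0.178), and neither passed. DESeq2 called both (adjusted p = 0.00154 and 0.0043). Without nonclassical replicate 2 the first of these log2 fold changes was 2.94. Markers of several other cell types were also higher in these groups than in classical monocytes. The sum of mast cell and basophil markers was 1760 CPM in nonclassical replicate 1 and 7132 CPM in replicate 2, 4067 to 8701 CPM in intermediate and 7.66 to 17.4 CPM in classical monocytes. B cell markers summed to 6833 and 4675 CPM in nonclassical replicates 1 and 2, 1399 to 2135 CPM in intermediate and 526 to 572 CPM in classical monocytes. Stem cell markers summed to 18.9 and 9.35 CPM in nonclassical replicates 1 and 2, 10.0 to 31.5 CPM in intermediate and 0.215 to 0.319 CPM in classical monocytes. Erythroid markers summed to 117 and 127 CPM in nonclassical replicates 1 and 2, 53.2 to 397 CPM in intermediate and 3.40 to 6.44 CPM in classical monocytes. Neutrophil markers were higher in intermediate (5256 to 5619 CPM) than in classical monocytes (1013 to 1417 CPM). In nonclassical monocytes they lay on both sides of the classical range, with 1590 CPM in replicate 1 and 378 CPM in replicate 2. Monocyte markers went the other way, at 14713 to 22832 CPM in nonclassical, 10850.5 to 11235.4 in intermediate and 41613 to 45601 in classical monocytes. Between the nonclassical replicates, the mast cell and basophil sum was higher in replicate 2, the library with more Hoxa9. So were the sum of GMP markers, with 156 CPM in replicate 1 and 524 CPM in replicate 2, and, slightly, the erythroid sum. The B cell, stem cell, neutrophil, and T and NK cell sums were lower in replicate 2. The part of these cells in the Hoxa9 counts was not tested.

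Hoxa7 stood highest in intermediate monocytes, at 7.53 and 6.18 CPM, with 1.51 and 0 CPM in nonclassical and 0.286 and 0.106 CPM in classical monocytes. The difference of intermediate from classical did not pass (log2 fold change 5.12, SE 2.45, edgeR adjusted p = 0.283). Hoxb4 had 0.0913 and 0.0461 CPM in intermediate monocytes, from 2 counts and 1 count, against 3.11 and 3.51 CPM in classical monocytes. This did not pass either (log2 fold change −5.42, SE 1.30, edgeR adjusted p = 0.106), and DESeq2 called it lower (adjusted p = 0.000511). Markers of GMP, which include Kit and Mpo, summed to 4383 to 13188 CPM in intermediate, 156 to 524 CPM in nonclassical and 797 to 1128 CPM in classical monocytes. No member passed in these comparisons by edgeR, against 5.82% of 13944 genes called for nonclassical and 2.11% for intermediate against classical monocytes. Between nonclassical and intermediate monocytes edgeR called 0 genes, with 1710 genes (12.3%) at an unadjusted p under 0.05. DESeq2 called 605 genes higher, Hoxb4 among them, and 607 lower (Hoxb4 adjusted p = 0.00252).

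Among the classes, Hoxa9 had 66 and 185 counts in class 4, 20 and 9 in class 3, 0 and 0 in class 2 and 0 and 0 in class 1. Class 4 was at least 71.7-fold and class 3 at least 8.21-fold higher than class 1, with the floor of 3 counts over the 2 class 1 libraries. Class 4 passed against class 1 (edgeR adjusted p = 0.0115), the only member call there, against 25.1% of 13686 genes called and 10.2% called higher, and class 3 did not (adjusted p = 0.0557). Leaving out either class 1 library ended the class 4 call (adjusted p = 0.0538 without replicate 1 and 0.0514 without replicate 2). Neutrophil markers summed to 50452 to 71190 CPM in class 4, 6420 to 10608 CPM in class 3, 742 to 1082 CPM in class 2 and 512 to 1152 CPM in class 1. GMP markers summed to 10159 to 11373 CPM in class 4, 6587 to 8225 CPM in class 3, 72.2 to 142 CPM in class 2 and 803 to 1081 CPM in class 1. Mast cell and basophil markers summed to 941 to 1992 CPM in class 4, 370 to 890 CPM in class 3, at most 0.170 CPM in class 2 and 5.08 to 11.4 CPM in class 1. Erythroid markers summed to 3219 to 4162 CPM in class 4, 1.37 to 3.49 CPM in class 3, 4.45 to 8.19 CPM in class 2 and 42.4 to 98.5 CPM in class 1. Stem cell markers summed to 32.6 to 48.8 CPM in class 4, 1.06 to 2.38 CPM in class 3, 0.238 to 0.467 CPM in class 2 and 1.93 to 2.25 CPM in class 1. B cell markers summed to 4765 to 6256 CPM in class 4, 689 to 798 CPM in class 3, 818 to 1076 CPM in class 2 and 1749 to 3304 CPM in class 1. Class 4 thus had the most Hoxa9 and the highest sum of each of these 6 marker lists among the classes. T and NK cell markers did not follow, with 27.7 to 35.7 CPM in class 4 and 30.6 to 33.3 CPM in class 1. They summed to 2.06 to 4.26 CPM in class 3 and 0.373 to 0.570 CPM in class 2. Monocyte markers were lowest in class 4, at 17221 to 17245 CPM, and summed to 21873 to 25486 CPM in class 3. They summed to 66548 to 70623 CPM in class 2 and 54691 to 59138 CPM in class 1. The part of all these cell types in the Hoxa9 counts was not tested. No member passed by edgeR in class 2 or class 3 against class 1, with 9.29% and 13.4% of genes called. Hoxa9 was called higher in class 3 by DESeq2 (adjusted p = 0.0159) and by edgeR without the low-count filter (adjusted p = 0.00595).

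The mean Meis1 level of each primary group lay between the means of the cultured states. Class 4 had 4.46 and 19.1 CPM, class 3 2.99 and 5.94, class 2 5.43 and 7.36, and class 1 6.34 in both libraries. Nonclassical monocytes had 8.89 and 17.3 CPM, intermediate 16.9 and 8.26, and classical 6.26 and 6.65. Replicates of class 4 differed by more than the class means did, and Meis1 was not called in any comparison among primary monocytes. Pbx3 was the steadiest member, from 6.59 CPM in class 4 replicate 2 to 18.3 CPM in classical replicate 1. By the order of group means Meis1 ran from progenitors (42.2 CPM) through nonclassical, intermediate and class 4 monocytes (13.1, 12.6 and 11.8 CPM), classical, class 2 and class 1 (6.46, 6.40 and 6.34 CPM) and class 3 (4.46 CPM) to the monocytic clones (1.43 CPM). Ranges of neighbours in that order overlapped except between class 1 and class 3. Hoxb4 ran from monocytic clones (14.6 CPM) and progenitors (7.37 CPM) through classical (3.31 CPM), nonclassical (2.69 CPM), class 2 (2.36 CPM), class 4 (2.04 CPM) and class 3 (1.90 CPM) to class 1 (0.490 CPM) and intermediate monocytes (0.0687 CPM), and there only class 3 and class 1 did not overlap.

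Cultured cells were also set against the 2 libraries of classical monocytes, where culture and origin cannot be told apart. Monocytic clones had more Hoxb4 (log2 fold change 2.17, SE 0.532, edgeR adjusted p = 0.00261) and less Meis1 (−2.21, SE 0.612, adjusted p = 0.00715), with 30.8% of 14319 genes called, and Pbx3 did not pass (−0.38, adjusted p = 0.287). Without classical replicate 1 neither call was made (edgeR adjusted p = 0.0693 for Hoxb4 and 0.0805 for Meis1), and without replicate 2 Hoxb4 was called and Meis1 was not (0.0891). Progenitors had more Meis1 than classical monocytes (2.72, SE 0.507, edgeR adjusted p = 5.31e-05), with 54.2% of 13739 genes called, while Hoxb4 (1.18, adjusted p = 0.226) and Pbx3 (0.46, adjusted p = 0.102) did not pass. Hoxb8 passed in both, and its bounds are given above.

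Of 9 TALE cofactors, 5 passed the low-count filter between the states. Pbx2 was higher in monocytic cells (log2 fold change 0.84, SE 0.104), and Pbx4 was lower (−3.85, SE 0.245), as were Meis1 and Pbx3. Pbx4 averaged 1.15 ± 1.38 CPM in monocytic and 13.2 ± 4.62 CPM in progenitor libraries (SD, n = 24 each). Pknox1, a Meis-related partner of Pbx proteins, did not pass (−0.24, edgeR adjusted p = 0.06). It was called lower without clone 21, whose progenitor library is the shallowest (−0.29, adjusted p = 0.00561), and without the low-count filter (−0.35, adjusted p = 0.0193). Per kilobase of exon, Pbx2 stood highest of the tested partners, at 31.2 CPM per kb in monocytic and 16.7 in progenitor libraries. In monocytic libraries Pknox1 followed with 4.92, then Pbx3 with 2.10, Pbx4 with 0.518 and Meis1 with 0.136 CPM per kb. In progenitor libraries Pbx4 (5.97) and Pknox1 (5.96) had nearly the same mean, above Meis1 (4.01) and Pbx3 (3.82 CPM per kb). The median log2 fold change of the 5 tested cofactors was −0.82, beside −0.02 over all genes tested.

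Genes that maintain or silence Hox clusters moved unevenly. Of 8 listed MLL complex and Dot1l genes, 7 were matched by symbol and tested, and Kmt2a itself was not among them. Of these 7, 0 were higher, 4 were lower and 3 did not pass, with a median of −0.25. The lower ones were led by Psip1, the chromatin tether of the MLL complex (−1.42, SE 0.0869), Ash2l (−1.0, SE 0.0853) and Dpy30 (−0.70, SE 0.142), core subunits shared by its relatives, while Wdr5, the most expressed of those that did not pass, had −0.04. Of 11 Polycomb genes, 3 were higher, 5 were lower and 3 did not pass, with a median of −0.11. Bmi1 (−1.86, SE 0.0747), a subunit of the ubiquitin ligase complex, and the methyltransferase Ezh2 (−1.62, SE 0.173) and Cbx2 (−1.45, SE 0.214) were the largest changes, and Ezh1, the relative of Ezh2 found in resting cells, was higher (1.19, SE 0.0833). Of 12 genes known as targets of Hox and Meis proteins in blood cells, 3 were higher and 9 lower, with a median of −1.59. Flt3, a cytokine receptor of progenitors (−8.02, SE 0.280), Trib2 (−6.23, SE 0.362) and Cd34 (−5.99, SE 0.252) fell the most. Myb, the progenitor transcription factor, fell by 3.03 on the log2 scale (SE 0.296). All these counts stand against the 78.6% of genes called, and with no set test none is particular to its list.

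Within a state, the levels of members were set against all other tested genes over 24 clones, with the mean of each clone set removed, and p-values were adjusted over 11613 genes for each of 4 members in each state. In monocytic cells, 5.58% of genes were correlated with Hoxb8, 248 positively and 400 negatively. In progenitors 3 genes, 0.0258%, were. Meis1 had 12 in progenitors, 0.103% of genes (8 positive and 4 negative), and 0 in monocytic cells, and Hoxb4 and Pbx3 had 0 in either state (permutation test). As 1e-05 was the smallest p, a lone correlated gene could not pass the adjustment over 11613 genes, so a count of 0 does not exclude one. Of 65 listed markers and pathway genes, 3 passed with Hoxb8 in monocytic cells and 1 with Meis1 in progenitors, and these 4 were named after their values were seen.

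Hoxb8 was correlated with Myb in monocytic cells with r = 0.66 (permutation p = 0.00072, adjusted 0.0272) and rho = 0.61 (permutation p = 0.00308). It was correlated with Prtn3, a granule protease of progenitors, with r = 0.61 (permutation p = 0.0022, adjusted 0.0445) and rho = 0.59 (permutation p = 0.00488). With Cd14, the lipopolysaccharide co-receptor of monocytes, r was −0.65 (permutation p = 0.00093, adjusted 0.0298) and rho −0.62 (permutation p = 0.00286). These 3 of 65 listed genes are a share no larger than the 5.58% of all genes, so nothing is read from them about progenitor or monocyte genes as a group. Without clones 5 and 25, r was 0.54 for Myb, 0.54 for Prtn3 and −0.57 for Cd14. It kept its sign in either set. Among clones 15 to 25 it was 0.59 for Myb, 0.48 for Prtn3 and −0.60 for Cd14, and among clones 1 to 13 it was 0.87, 0.93 and −0.72. Csf1r, the M-CSF receptor, had −0.59 (adjusted p = 0.0625), Ezh2 0.57 (adjusted p = 0.0669) and Mpo 0.53 (adjusted p = 0.0926), none past the permutation threshold. The summed GMP markers varied from 115 to 25135 CPM over these monocytic libraries. The part of incomplete maturation in these relations was not tested.

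**Figure D5:**
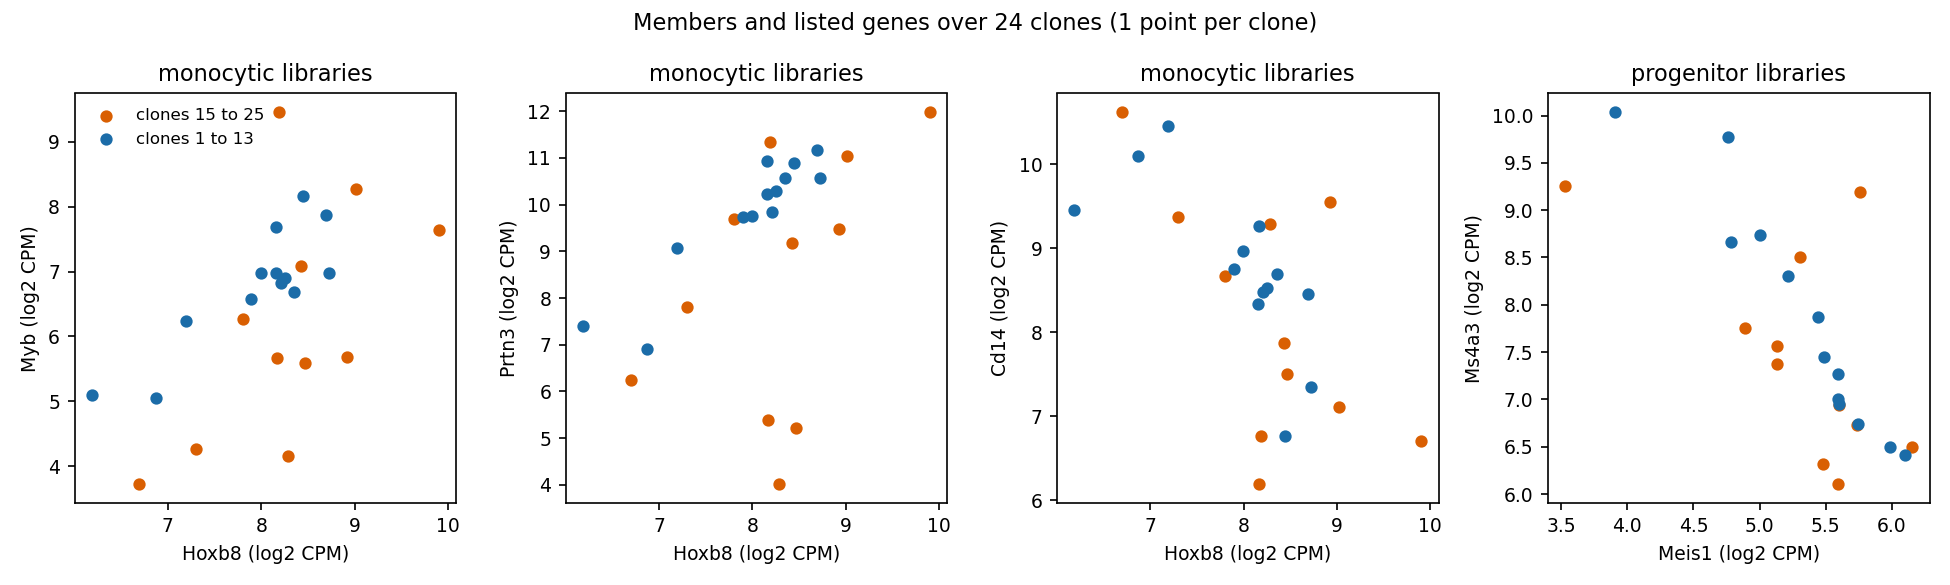
Log2 CPM of Myb, Prtn3 and Cd14 against Hoxb8 in monocytic libraries, and of Ms4a3 against Meis1 in progenitor libraries, with 1 point per clone, orange for clones 15 to 25 and blue for clones 1 to 13. Values are shown before set means were removed; Myb and Prtn3 rise and Cd14 falls with Hoxb8, and Ms4a3 falls with Meis1.

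In progenitors, Meis1 was negatively correlated with Ms4a3, a membrane protein of granulocyte-monocyte progenitors and their descendants. The correlation was −0.77 (permutation p = 2e-05, adjusted 0.0258) with rho = −0.75 (permutation p = 8e-05), and −0.68 without clones 24 and 13. Among clones 15 to 25 alone r was −0.58, and among clones 1 to 13 alone −0.95. Clones 24 and 13 had the lowest Meis1 of the progenitor libraries. By the naming rule, over all 48 libraries with state and set means removed, the genes most like Meis1 were Lrfn4 (r = 0.75), Prkca, a protein kinase C (r = 0.71), and Osbpl5 (r = 0.70). Those most like Pbx3 were Mast2 (r = 0.69), Fads2 and Ttll5 (r = 0.66 each), and those most like Hoxb4 were Plekhg5 (r = 0.56), Dram1 and Mapk7 (r = 0.54 each). For Hoxa10 the likeness rests on the shallow progenitor library of clone 21, where 3 counts make 6.56 CPM, and no gene is named.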

How the data were processed

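Counts per gene, that is, whole-number read counts, were deposited by the authors for total RNA libraries (RNeasy extraction, NEB kits, per the labels' protocols). STAR 2.7.3a, HTSeq 0.6.0 and mm9 were used, per the submitters' processing notes, with neither strand setting nor annotation release given. Of its columns, 1 is matched by no label and was left out. Symbols came from GENCODE M21 on GRCm38, from which no coordinate was carried to the counts. The members and gene lists were chosen with earlier results of these data known. Named were the 7 members, tested Hox and TALE genes, up to 3 called genes and the most expressed gene not called per list, and the 3 genes most like each member among those with mean log2 CPM of at least 1.

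Fits were made in R 4.3.3 with edgeR 4.0.16, on limma 3.58.1 (filterByExpr with a minimum count of 10, TMM scaling, 2-sided quasi-likelihood F tests, Benjamini-Hochberg adjustment over all tested genes, threshold 0.05). Clone number paired the 48 clone libraries, as the design text states. The 6 subset libraries shared 1 fit, as did the 8 class libraries. A prior count of 2 went into log2 CPM. Correlations used 100000 permutations of clones (within sets where centred) in Python 3.11.15, numpy 2.4.6, pandas 2.3.3 and scipy 1.17.1, with 1e-05 the smallest p they can give. The paired fit, the fits against classical monocytes, the subset fit and the class fit were tested on simulated data. The interaction of state and clone set and the test of all clone terms were not. Alternatives were DESeq2 1.42.0, its size factors, other filters, no block, each set alone and leaving out each replicate.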

Additional observations from a re-analysis of the deposited data

Results flagged for a closer look

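Both results that drew a closer look are differences of the state effect between the clone sets. For Hoxb8, the log2 difference of monocytic from progenitor cells was −1.31 in clones 15 to 25 relative to clones 1 to 13 (edgeR interaction, adjusted p = 0.0142), and it ran from −1.43 without clone 1 to −1.07 without clone 24 (adjusted p from 0.00746 to 0.0413). For Hoxb4, the same interaction was −0.88 (edgeR adjusted p = 0.00435) and ran from −0.95 without clone 25 to −0.70 without clone 17 (adjusted p from 0.00165 to 0.0208). Esr1, the gene most like Hoxb8, had −1.18 (edgeR adjusted p = 0.0161). The sets differ in depth, and the labels name no batch.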

How the results depend on the processing

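Of the 4 members called between states, Meis1, Pbx3 and Hoxb4 kept direction and call there under every alternative run. Without the clone as a replicate block, 1 member was higher and Hoxb8 had 0.22 (adjusted p = 0.519). In clones 15 to 25 alone, 1 member was higher, Hoxb8 had 0.03 (adjusted p = 0.95) and 3078 genes were lower. Without a filter Hoxa7 was also called lower, and not once clone 4 was left out as well, an alternative chosen after seeing the data. The clone effect called 36 genes and 0 members in clones 1 to 13 alone, and 387 genes and 0 members in clones 15 to 25 alone. Spearman's rho called 421 genes between states, with −0.02 for Meis1, and the set-centred correlation 129 genes and 0 members. DESeq2 called 1799 genes higher, 1558 lower and 1 member higher in nonclassical against classical monocytes; 1765 higher, 1338 lower and 1 member each way in intermediate against classical; 605 higher, 607 lower and 1 member higher in nonclassical against intermediate; 866 higher and 1368 lower in class 2; and 1246 higher, with 1 member, in class 3, each against class 1. Without a filter 1062 genes were higher and 1263 lower in class 2, and 1185 genes and 1 member higher in class 3.

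The replicate numbers of the primary libraries are not said to mark a shared animal or day. Deviations of same-numbered libraries were correlated by 0.18 to 0.384 between subsets and by −0.0106 to 0.0728 between classes. With these numbers as a replicate block, 79 genes were lower in intermediate against classical monocytes and Hoxa9 had −0.55 in nonclassical against intermediate monocytes. It changed no member's call.

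Leaving out 1 primary library at a time gave 0 to 322 genes higher and 0 to 547 lower in nonclassical against classical monocytes, 0 to 13 higher and 0 to 1 lower in intermediate against classical, 73 to 176 higher and 396 to 480 lower in class 2, 172 to 279 and 437 to 609 in class 3, and 502 to 1714 and 1044 to 2591 in class 4, with 0 to 2 members higher in class 4. Against classical monocytes, 685 to 777 genes were higher and 1173 to 1336 lower in monocytic clones, with 1 to 2 members higher and 0 to 0 lower, and 2498 to 2535 were higher in progenitors. Fold changes that changed sign ran from −5.23 to 3.01 (Hoxa7) and −1.04 to 0.18 (Hoxb4) in nonclassical against classical, from −2.85 to 1.35 (Hoxa9), −0.42 to 0.58 (Meis1) and −0.19 to 0.32 (Pbx3) in nonclassical against intermediate, and for Meis1 from −0.16 to 0.31 in class 2 and −0.50 to 1.60 in class 4. Without class 4 replicate 1, Meis1 was called higher there (adjusted p = 0.025, edgeR). The cause of these changes was not tested. Groups of 2 libraries and 1 lone library with pooled spread limit every primary comparison, and counts under 10 limit the Hoxa genes in culture.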
